A study of Mus musculus with 4 samples.

Results

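Pi16/Dpp4 FAPs are the fibro-adipogenic progenitors (FAPs) of skeletal muscle that carry the adventitial progenitor genes Pi16 and Dpp4. They were chosen by their own RNA counts. A cell was a FAP if it held at least 1 UMI of Pdgfra, at least 100 UMIs of Col1a1, Col1a2, Col3a1 and Dcn together, 0 UMIs of Ptprc and at most 2 UMIs of Tnmd. UMIs, unique molecular identifiers, tag single RNA molecules, so that copies made during amplification count once. A FAP with at least 5 UMIs of Pi16 and Dpp4 together was a Pi16/Dpp4 FAP, which gave 362 cells among 993 FAPs and 5674 kept barcodes. The 362 cells comprised 131 of 383 FAPs from LNP-CRISPR bulk and 231 of 610 FAPs from vehicle bulk.

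The study asked which cells of skeletal muscle take up LNP-CRISPR, lipid nanoparticles that deliver the gene-cutting enzyme Cas9, in a mouse model of Duchenne muscular dystrophy (DMD). The cells of animals that had received LNP-CRISPR or vehicle were profiled by single-cell RNA sequencing, 1 preparation being bulk muscle cells and the other passed through a kit that isolates satellite cells. Each of the 4 groups is 1 library, and every group comes from the DMD model. The strain, age, dose, route and time of the animals are not given in the sources used here, nor is the number of animals behind a library. The kit libraries held 4 FAPs (LNP-CRISPR kit) and 0 FAPs (vehicle kit), none with 5 UMIs of Pi16 and Dpp4, so what follows is LNP-CRISPR bulk set against vehicle bulk. With 1 library per group no test is possible and no p-value is given. Ranges in brackets are 95% intervals for counting error only, and they leave out the differences between animals and preparations.

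LNP-CRISPR bulk held 25921795 UMIs in 1317 barcodes and vehicle bulk 33801488 UMIs in 1305 barcodes. The 131 Pi16/Dpp4 FAPs of LNP-CRISPR bulk held 7741 to 117625 UMIs (median 30814), and the 231 of vehicle bulk held 5622 to 114412 UMIs (median 29840), so depth per cell was close. No barcode was shared between the bulk libraries. Expression is given as CPM, the UMIs of a gene summed over cells per 1000000 nuclear-encoded UMIs. Counts of higher and lower genes use a ratio of at least 2 or at most 0.5 among genes with at least 50 UMIs over the cells compared.

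FAPs are the matrix-making stromal cells of muscle. They support muscle stem cells after injury and are a source of fat and scar tissue when repair fails, as in dystrophic muscle. In mouse tissues, fibroblasts that express Pi16, Dpp4 and Ly6a lie in the adventitia around vessels and in fascia, and they are regarded as a reserve from which more specialised fibroblasts arise. NF-kB is a family of transcription factors that is held inactive by inhibitors such as the product of Nfkbia. On inflammatory signals it switches on chemokines together with its own inhibitors.

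The promoters of 4 genes that carry the LNP-CRISPR against vehicle contrast below are shown because each holds the κB consensus, the short site that NF-kB binds. Sequences are those of RefSeq on GRCm38.p6, 300 bases each, from 250 before to 50 after the start of transcription, read 5′ to 3′ on the strand of the gene. Capitals mark matches to the consensus on either strand, and overlapping matches run together. Cxcl1 lies at chr5:90890995-90891294 on the plus strand, Cxcl10 at chr5:92348840-92349139 on the minus strand, Nfkbia at chr12:55492598-55492897 on the minus strand and Tnip1 at chr11:54962891-54963190 on the minus strand.
Cxcl1: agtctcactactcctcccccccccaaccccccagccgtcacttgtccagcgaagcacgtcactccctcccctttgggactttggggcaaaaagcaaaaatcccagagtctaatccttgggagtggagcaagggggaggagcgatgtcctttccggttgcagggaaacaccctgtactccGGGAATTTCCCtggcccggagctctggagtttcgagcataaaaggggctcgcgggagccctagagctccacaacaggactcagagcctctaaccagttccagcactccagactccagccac
Cxcl10: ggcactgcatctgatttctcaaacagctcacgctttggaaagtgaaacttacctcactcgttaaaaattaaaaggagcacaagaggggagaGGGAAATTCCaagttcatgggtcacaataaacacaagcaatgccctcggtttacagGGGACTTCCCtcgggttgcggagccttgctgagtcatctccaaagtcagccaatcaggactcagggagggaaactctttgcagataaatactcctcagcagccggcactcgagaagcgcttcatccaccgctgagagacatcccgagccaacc
Nfkbia: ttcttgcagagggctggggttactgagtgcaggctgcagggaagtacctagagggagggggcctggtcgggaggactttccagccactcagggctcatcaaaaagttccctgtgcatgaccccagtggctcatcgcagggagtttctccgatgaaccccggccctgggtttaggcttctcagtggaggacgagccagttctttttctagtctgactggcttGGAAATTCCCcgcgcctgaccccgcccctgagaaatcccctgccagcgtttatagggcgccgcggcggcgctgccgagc
Tnip1: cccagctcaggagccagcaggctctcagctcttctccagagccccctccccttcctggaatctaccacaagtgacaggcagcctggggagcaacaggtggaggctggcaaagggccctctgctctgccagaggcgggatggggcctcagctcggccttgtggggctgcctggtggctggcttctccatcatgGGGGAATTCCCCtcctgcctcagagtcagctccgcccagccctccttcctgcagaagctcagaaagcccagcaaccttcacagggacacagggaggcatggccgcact

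Among 32851 mouse promoters of this length 4.51% held a match. Counted by gene symbol, with a match in any promoter of the gene, the share was 5.14% of 27025 symbols. The list counts below are by gene in the same way. RefSeq promoters were at hand for 254 of the 367 genes in the lists used here. A match was present in 10 of 16 genes of the NF-kB feedback list, 4 of 9 chemokines and 5 of 13 immediate early genes. It was also present in 4 of 18 cytokines and growth factors, 4 of 22 interferon response, 2 of 11 acute phase and 2 of 10 iron and oxidative stress genes. Each other list had 0 or 1, among them 0 of 18 progenitor FAP genes, 0 of 16 matrix genes and 0 of 7 complement genes. With so few genes, 0 matches lies close to the 5.14% share. The NF-kB feedback list was drawn up around this pathway, so its share is not independent evidence. The Cxcl10 promoter held 2 separate runs. Promoters of Saa3, Csf2, Pi16 and Dpp4 held no match in this window. A match is a description of letters and does not show binding.

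Within each library the Pi16/Dpp4 FAPs held more RNA of the wider adventitial gene set than the other FAPs. Pi16 (chr17:29317680-29330593, GRCm38) encodes a secreted peptidase inhibitor and Dpp4 (chr2:62330073-62412231) a membrane dipeptidase. Their sum ran from 5 to 250 UMIs per cell in LNP-CRISPR bulk (median 14) and from 5 to 384 in vehicle bulk (median 16). Pi16 made up 92.1% of that sum in both libraries, and Dpp4 was detected in 62 of 131 and 118 of 231 cells. Selection therefore rested mostly on Pi16. At the threshold, 12 FAPs of LNP-CRISPR bulk and 19 of vehicle bulk stood at exactly 5 UMIs, and 23 and 30 stood just outside it at 4. Over the selected cells the Spearman correlation of Pi16 with Dpp4 CPM was 0.20 in LNP-CRISPR bulk (131 cells) and 0.37 in vehicle bulk (231 cells).

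The contrast of Pi16/Dpp4 FAPs with other FAPs is the one the selection used, so its values are a description. Of 10248 genes measured in LNP-CRISPR bulk 123 were higher (1.2%) and 175 lower (1.71%). In vehicle bulk 204 of 11156 genes were higher (1.83%) and 219 lower (1.96%). All 23 measured genes of the progenitor list, Pi16 and Dpp4 included, had a ratio over 1 in both libraries. Of all genes 47.1% lay over 1 and 52.9% under 1 in LNP-CRISPR bulk, and 47.8% and 52.2% in vehicle bulk. The median log2 ratio of the list was 1.26 in LNP-CRISPR bulk and 1.29 in vehicle bulk, with 15 and 16 genes at or over a ratio of 2. Dact2 and Axin2, the remaining genes of that list, had too few UMIs. Lists of the other states lay nearer the level of other FAPs, with 7 of 19 parenchymal genes over 1 in LNP-CRISPR bulk (median log2 ratio -0.26) and 10 of 20 in vehicle bulk (-0.01). Activation genes had 4 of 18 over 1 in LNP-CRISPR bulk (-0.26) and 9 of 18 in vehicle bulk (0.05).

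Cd55, which encodes a membrane inhibitor of complement, stood at 139 CPM in Pi16/Dpp4 FAPs and 26.3 CPM in other FAPs of LNP-CRISPR bulk (ratio 5.27, 4.54–6.14). In vehicle bulk it stood at 168 CPM against 29.1 CPM (5.78, 5.16–6.50). Sema3c, a secreted guidance protein, was 4.43 times the level of other FAPs in LNP-CRISPR bulk and 5.23 times in vehicle bulk. Pcsk6, a protease of the secretory pathway that activates precursor proteins, was 3.77 and 5.45 times as high, in the same order. Efemp1, an elastic-fibre protein, was 4.42 and 4.16 times as high, and Sbsn was 9.18 and 7.47 times as high. Ratios for the calcium-binding Efhd1 were 6.72 and 8.69, for the sialic acid hydroxylase Cmah 4.26 and 8.74, for the lipase Mgll 4.59 and 3.93, and for 1700019D03Rik 7.81 and 6.54. Serpinb2, an inhibitor of plasminogen activators, had ratios of 12.6 and 8.12. It was found in 12.2% and 12.6% of the cells, with single cells holding 467 of 689 UMIs and 801 of 2584 UMIs.

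Lower in Pi16/Dpp4 FAPs than in other FAPs were the growth factor Ptn, with a ratio of 0.251 in LNP-CRISPR bulk and 0.315 in vehicle bulk, and the lipocalin Apod, with 0.312 and 0.347. Apod was at 284 CPM in Pi16/Dpp4 FAPs and 910 CPM in other FAPs of LNP-CRISPR bulk. Ecrg4 (0.272 and 0.281), the membrane proteins Tmem176a (0.275 and 0.319) and Tmem176b (0.312 and 0.335), and the myosin kinase Mylk (0.306 and 0.336) had like ratios in both libraries. S100a4, a calcium-binding protein of motile cells, had ratios of 0.490 and 0.323. Spp1 (osteopontin) differed more between libraries, at 0.376 and 0.0825, and 1 other FAP of vehicle bulk held 1291 of its 1940 UMIs there.

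**Figure D1:**
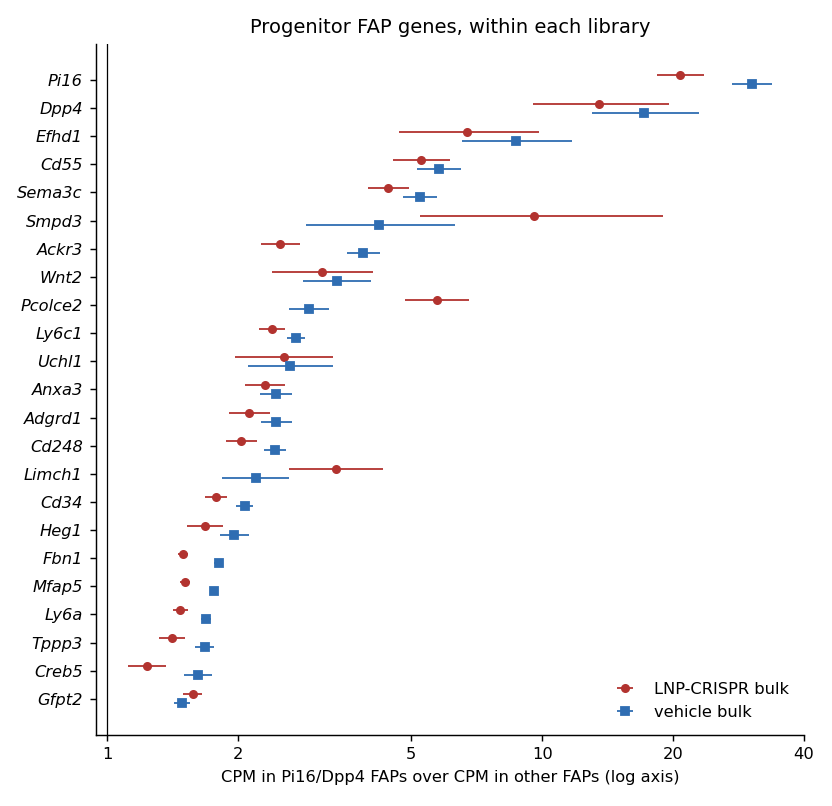
Ratio of CPM in Pi16/Dpp4 FAPs over CPM in other FAPs of the same library for the 23 measured progenitor FAP genes (log axis), with LNP-CRISPR bulk as red circles, vehicle bulk as blue squares and bars for 95% counting intervals. All 23 genes lie over 1 in both libraries, led by Pi16 and Dpp4, which the selection used.

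Activation genes were present in part of these cells. At least 5 UMIs of Tnc and Adam12, a matrix glycoprotein and a membrane protease made by activated FAPs, were found in 37.4% (29.1–46.3) of Pi16/Dpp4 FAPs of LNP-CRISPR bulk and 34.6% (28.5–41.2) of vehicle bulk. Among other FAPs the shares were 47.6% (41.3–54.0) in LNP-CRISPR bulk and 42.5% (37.4–47.6) in vehicle bulk. Other FAPs with at least 5 UMIs of these genes are called activated below (120 cells in LNP-CRISPR bulk, 161 in vehicle bulk), and those with fewer parenchymal (132 and 218 cells). Pi16/Dpp4 FAPs made up 34.2% (29.5–39.2) of FAPs in LNP-CRISPR bulk and 37.9% (34.0–41.9) in vehicle bulk, a ratio of 0.903 (0.723–1.12). Of all kept barcodes they made up 11.4% (9.60–13.3) and 19.2% (17.0–21.5), a ratio of 0.593 (0.475–0.738). FAPs as a whole made up 33.2% of kept barcodes in LNP-CRISPR bulk and 50.7% in vehicle bulk, and such shares also depend on how cells were isolated.

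Markers of other cell types were low in the Pi16/Dpp4 FAPs. The 4 neutrophil markers summed to 54.1 CPM in LNP-CRISPR bulk and 13.7 CPM in vehicle bulk, with at least 1 UMI in 84.0% and 35.5% of cells and at most 8 UMIs in any cell. Other FAPs had 52.99 CPM in LNP-CRISPR bulk and 12.1 CPM in vehicle bulk, so the difference was as large there. The 6 macrophage markers summed to 27.4 CPM (5 of 6 above 0, Adgre1 at 0) in LNP-CRISPR bulk and 21.9 CPM (6 of 6) in vehicle bulk, and no cell held more than 8 UMIs. Glial markers summed to 79.8 CPM and 38.3 CPM with 1 cell of each library holding 338 and 219 of those UMIs. T or NK, endothelial, satellite and mesothelial markers each summed to under 6 CPM in both libraries. Of 4 markers each, 1 T or NK, 3 endothelial, 2 satellite and 2 mesothelial markers were above 0 in LNP-CRISPR bulk, and 1, 3, 2 and 1 in vehicle bulk. Trbc2 had 6 and 3 UMIs, Pecam1 9 and 29 and Des 13 and 36, with LNP-CRISPR bulk first, while Cd3e, Cd3d, Nkg7, Emcn, Pax7, Myod1, Msln and Lrrn4 were at 0 UMIs in both. Tenocyte markers stood at 16.9 CPM and 16.4 CPM, pericyte or smooth muscle markers at 8.98 CPM and 12.03 CPM, muscle fibre markers at 23.6 CPM and 34.4 CPM and perineurial markers at 59.8 CPM and 60.7 CPM, each with 4 of 4 above 0 and LNP-CRISPR bulk first. The part of these RNAs in the results below was not tested.

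Pi16/Dpp4 FAPs of LNP-CRISPR bulk were rich in Cas9 RNA. They held 10550 Cas9 UMIs, or 2204 CPM (2162–2247), and at least 1 UMI was found in 91.6% (85.5–95.7) of cells. At least 4 UMIs were found in 75.6% (67.3–82.7). The lowest cell had 0 UMIs, the median cell 16 and the highest 904, with quartiles at 4 and 94. The 14 richest cells held 55.9% of the Cas9 UMIs, so the load was uneven. In vehicle bulk Cas9 was found in 0 of 231 cells, which by a limit of 3 counts allows a UMI in up to 1.30% of cells and a level of up to 0.388 CPM. After thinning every cell to 1000 UMIs, 45.8% (37.1–54.7) of the Pi16/Dpp4 FAPs of LNP-CRISPR bulk still had a Cas9 UMI. Detection of at least 1 UMI was about as common in the other FAPs of that library, at 91.3% of 252 cells. A count of 4 or more was reached by 72.0% of its parenchymal and 56.7% of its activated FAPs. Thinned to 1000 UMIs, 47.7% of parenchymal and 25.8% of activated FAPs kept a Cas9 UMI.

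Barcodes of other cell types in the same library set levels beside which to read the Cas9 RNA of Pi16/Dpp4 FAPs, and free RNA in the droplets can add to each of them. Glial barcodes (20 cells, median 9013 UMIs) held 13.3 CPM of Cas9, with a UMI in 10.0% of cells. T or NK barcodes (37 cells, median 8879 UMIs) held 128 CPM, with a UMI in 35.1%. Macrophage barcodes (173 cells, median 16564 UMIs) held 482 CPM, with a UMI in 72.8%. The Pi16/Dpp4 level was 4.58 times that of macrophage barcodes (4.33–4.83). After thinning to 1000 UMIs the shares of cells with a Cas9 UMI were 5.26%, 13.5% and 28.9% in glial, T or NK and macrophage barcodes, in that order, with 1 glial barcode left out as too shallow.

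Set against the other FAPs of LNP-CRISPR bulk, which held 1336 CPM of Cas9, the Pi16/Dpp4 FAPs were 1.65 times as high (1.61–1.69). Activated FAPs held 959 CPM, and the ratio to them was 2.30 (2.23–2.37). Parenchymal FAPs held 2218 CPM, and the ratio to them was 0.994 (0.963–1.03). The median cell put them in another order, with 528 CPM in Pi16/Dpp4 FAPs, 87.9 CPM in activated FAPs and 774 CPM in parenchymal FAPs. Depth moved with this order, with a median of 30814 UMIs in Pi16/Dpp4 FAPs, 46572 in activated FAPs and 22303 in parenchymal FAPs. Among cells of 10000 to 30000 UMIs Cas9 stood at 3455 CPM in Pi16/Dpp4 FAPs (61 cells), 2373 CPM in activated FAPs (15 cells) and 2154 CPM in parenchymal FAPs (86 cells). Among cells of 30000 to 60000 UMIs the levels were 2552 CPM (50 cells), 1037 CPM (64 cells) and 2012 CPM (24 cells). In both of these depth ranges the summed CPM of Pi16/Dpp4 FAPs was thus above that of both other states. At 60000 UMIs or more the order turned, with 625 CPM in Pi16/Dpp4 FAPs (19 cells) and 744 CPM in activated FAPs (40 cells). No parenchymal FAP was that deep, and the 22 parenchymal FAPs under 10000 UMIs held 4309 CPM. The median cell gave another order at 10000 to 30000 UMIs, with 10, 18 and 16 Cas9 UMIs in Pi16/Dpp4, activated and parenchymal FAPs. At 30000 to 60000 UMIs the median cells held 42.5, 4 and 11.5 Cas9 UMIs, in the same order. Restricted to FAPs of 10000 to 60000 UMIs, Pi16/Dpp4 FAPs (111 cells) held 2904 CPM and other FAPs (189 cells) 1613 CPM, with a ratio of 1.801 (1.75–1.85).

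**Figure D2:**
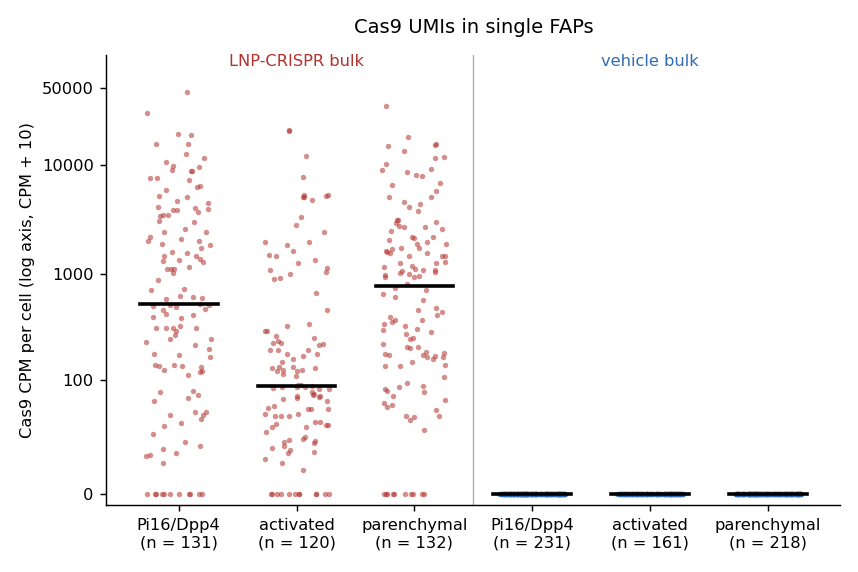
Cas9 CPM in each single FAP (log axis, 10 CPM added), with LNP-CRISPR bulk in red on the left and vehicle bulk in blue on the right. Points are cells spread sideways at random, black lines are medians, and every cell of vehicle bulk lies at 0 while the median Pi16/Dpp4 FAP of LNP-CRISPR bulk lies at 528 CPM.

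Cas9 load varied with the state of the Pi16/Dpp4 FAPs. The 49 cells with at least 5 UMIs of Tnc and Adam12 held 1385 CPM (1341–1430), and the 82 cells with fewer held 3275 CPM (3198–3354), a ratio of 0.423 (0.406–0.440). Their median depths were 50596 and 24592 UMIs. By the sum of Pi16 and Dpp4, Cas9 stood at 2986 CPM in the 34 cells with 30 UMIs or more, 2524 CPM in the 49 cells with 10 to 29 and 1452 CPM in the 48 cells with 5 to 9. The median cells of these classes held 16.5, 40 and 11.5 Cas9 UMIs, in the same order, so the medians did not follow that gradient. Cas9 stood at 625 CPM in the 19 cells of 60000 UMIs or more, under the levels given above for shallower cells, while the 1 cell under 10000 UMIs held 203 Cas9 UMIs. Over the 131 cells the Spearman correlation of Cas9 CPM was -0.19 with total UMIs, 0.14 with Pi16 and Dpp4 CPM and -0.28 with Tnc and Adam12 CPM. It was -0.07 with the CPM of Lrp1, a receptor through which lipoprotein-coated particles enter cells. These cells share 1 library, and CPM values of a cell share 1 denominator.

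A transcript that moved closely with Cas9 was Hba-a2 (chr11:32296489-32297298), which encodes the alpha chain of adult haemoglobin and is a product of red blood cells. Sequences of the delivered RNA and of the Cas9 feature are not given in the sources used here, so whether these UMIs stem from the haemoglobin gene or from alpha-globin sequence in the delivered RNA was not tested. It had 393 UMIs (82.1 CPM) in Pi16/Dpp4 FAPs of LNP-CRISPR bulk, with a UMI in 56.5% of cells and at most 51 in any cell, against 2 UMIs (0.259 CPM) in vehicle bulk. This made a ratio of 317 (87.3–2629), the first in rank among all genes. The other globin genes did not follow. Hbb-bs, the beta chain, had 2 UMIs in each library. Hba-a1, a near-identical copy of Hba-a2 with which reads can be shared, had 6 UMIs in LNP-CRISPR bulk and 3 UMIs in vehicle bulk. Because of that copy, the split between Hba-a1 and Hba-a2 is uncertain.

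Hba-a2 was found in 92.9% of the 56 Pi16/Dpp4 FAPs with 30 or more Cas9 UMIs (361 UMIs), in 37.2% of the 43 cells with 4 to 29 and in 18.8% of the 32 cells with 0 to 3. Activated FAPs with 30 or more, 4 to 29 and 0 to 3 Cas9 UMIs had shares of 88.5%, 33.3% and 17.3%, and parenchymal FAPs had 88.9%, 34.0% and 10.8%. For every 100 Cas9 UMIs there were 3.73 Hba-a2 UMIs in Pi16/Dpp4 FAPs, 2.81 in activated FAPs and 4.04 in parenchymal FAPs. The Spearman correlation of Hba-a2 with Cas9 CPM was 0.80 over the 131 Pi16/Dpp4 FAPs and 0.66 over the 252 other FAPs. Among glial barcodes of the library Hba-a2 was at 0 UMIs in 20 cells, at a lower median depth of 9013 UMIs. Macrophage barcodes of LNP-CRISPR bulk (173 cells) held 91 Hba-a2 UMIs, with a UMI in 31.2% of cells. T or NK barcodes of LNP-CRISPR bulk (37 cells) held 4 Hba-a2 UMIs, with a UMI in 10.8% of cells. The macrophage barcodes of vehicle bulk (206 cells) held 3 Hba-a2 UMIs, and its T or NK barcodes (27 cells) held 0.

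Between treatments, Pi16/Dpp4 FAPs of LNP-CRISPR bulk stood out by chemokines, NF-kB feedback genes and Il6, which were higher than in vehicle bulk. Matrix and progenitor genes were mostly a little lower, and complement genes were lower by more. Of 10080 genes measured, 113 were higher (1.12%) and 107 lower (1.06%) by the fold. A ratio over 1 was found for 43.7% of genes, and the median log2 ratio over all genes was -0.04.

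Of 15 listed chemokines, the secreted proteins that draw leukocytes, 14 were measured. Of these 11 had a ratio over 1 (against 43.7% of all genes), 7 a ratio of at least 2 and 1 a ratio of at most 0.5, and the median log2 ratio was 0.99. Ccl2, which attracts monocytes, stood at 4718 CPM in LNP-CRISPR bulk and 1725 CPM in vehicle bulk (ratio 2.74, 2.68–2.79). Per cell it ran from 0 to 1458 UMIs with a median of 56 in LNP-CRISPR bulk, and from 0 to 941 with a median of 1 in vehicle bulk, so the groups overlapped but the typical cell differed. Ccl7, a close relative, stood at 1454 CPM and 530 CPM (2.74, 2.64–2.85), with LNP-CRISPR bulk first. Cxcl1, which attracts neutrophils, stood at 4654 CPM in LNP-CRISPR bulk and 2583 CPM in vehicle bulk (1.802, 1.77–1.84), with median cells of 85 and 22 UMIs.

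The neutrophil attractants Cxcl2 and Cxcl5 stood at 1701 CPM and 1576 CPM in LNP-CRISPR bulk, against 775 CPM and 538 CPM in vehicle bulk, ratios of 2.19 and 2.93. Cxcl3, a relative outside the list, stood at 154 CPM in LNP-CRISPR bulk and 31.2 CPM in vehicle bulk (4.95, 4.27–5.74). Cxcl10, an attractant of T cells, stood at 778 CPM and 107 CPM (7.29, 6.76–7.87). A Cxcl10 UMI was found in 70.2% of the Pi16/Dpp4 FAPs of LNP-CRISPR bulk and 26.0% of those of vehicle bulk. Glial barcodes, at a lower median depth of 9013 and 8340 UMIs, had one in 5% and 12.5% of cells. Cxcl9 had a ratio of 2.46 (2.30–2.64) and the eosinophil attractant Ccl11 a ratio of 1.53 (1.43–1.64). Ccl5, an attractant of T cells, had 173 UMIs in LNP-CRISPR bulk, 142 of them in 1 cell, and 6 UMIs in vehicle bulk. Of the list, 3 genes were lower. Ccl8 was at a ratio of 0.717 (0.614–0.835), Cxcl12, which retains progenitor and immune cells, at 0.929 (0.851–1.01), and Cxcl13 had 7 UMIs in LNP-CRISPR bulk and 67 UMIs in vehicle bulk. Neutrophil markers were higher in the cells of LNP-CRISPR bulk as well, as given above.

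**Figure D3:**
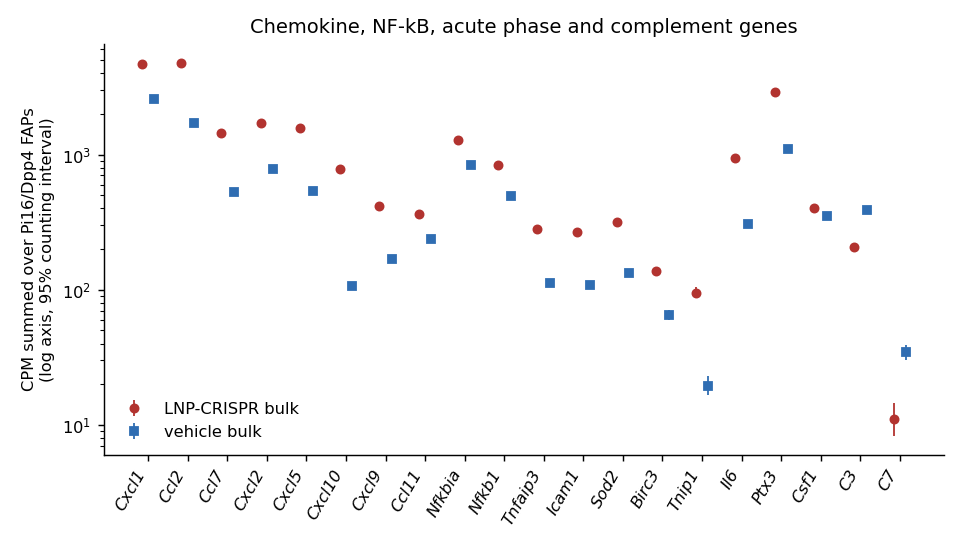
CPM summed over Pi16/Dpp4 FAPs for 20 chemokine, NF-kB, cytokine, acute phase and complement genes (log axis), with LNP-CRISPR bulk as red circles, vehicle bulk as blue squares and bars for 95% counting intervals. The chemokines from Cxcl1 to Ccl11 and the NF-kB genes from Nfkbia to Tnip1 lie higher in LNP-CRISPR bulk, and C3 and C7 lie lower.

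Every measured gene of the NF-kB feedback list had a ratio over 1 in Pi16/Dpp4 FAPs (19 of 19, 7 of them at least 2), with a median log2 ratio of 0.82. Tnip1 (chr11:54910785-54962917), whose product restrains NF-kB signalling, had the highest ratio of the list at 4.86 (4.03–5.88). It stood at 94.9 CPM in LNP-CRISPR bulk, with a UMI in 69.5% of cells, and 19.5 CPM in vehicle bulk, with a UMI in 35.5%. Tnfaip3 (A20), a further inhibitor of the pathway, stood at 282 CPM in LNP-CRISPR bulk and 112 CPM in vehicle bulk (2.52, 2.31–2.75). Nfkbia, the inhibitor that NF-kB induces, stood at 1281 CPM in LNP-CRISPR bulk and 833 CPM in vehicle bulk (1.54, 1.48–1.59). It ran from 3 to 314 UMIs per cell with a median of 30 in LNP-CRISPR bulk and from 0 to 209 with a median of 19 in vehicle bulk.

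Among the subunits, Nfkb1 had a ratio of 1.69, Nfkb2 1.77, Relb 1.90, Rela 1.59 and Rel 1.33. Birc3, an inhibitor of cell death, had a ratio of 2.11, and Zc3h12a, which degrades cytokine RNAs, had 2.28. The adhesion molecule Icam1 stood at 268 CPM in LNP-CRISPR bulk and 109 CPM in vehicle bulk (2.46, 2.25–2.69), and Sod2, the mitochondrial superoxide dismutase, at 315 CPM and 133 CPM (2.36, 2.18–2.56). The prostaglandin synthase Ptgs2 had a ratio of 1.503 (1.45–1.56). Rnd1, a small GTPase that loosens cell adhesion, stood at 231 CPM in LNP-CRISPR bulk and 38.0 CPM in vehicle bulk (6.07, 5.33–6.93). The guanylate-binding protein Gbp5 stood at 46.2 CPM and 9.83 CPM (4.70, 3.60–6.18), in the same order.

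The cytokines and growth factors differed from gene to gene, 13 of 22 over 1 with a median log2 ratio of 0.08. Il6 stood at 950 CPM in LNP-CRISPR bulk and 305 CPM in vehicle bulk (3.12, 2.97–3.28), with median cells of 12 UMIs and 1 UMI. Its relative Lif had a ratio of 2.49 (2.13–2.91) and Tslp, which acts on dendritic cells, 2.99 (2.41–3.72). Csf2, a growth factor of myeloid cells, stood at 83.8 CPM in LNP-CRISPR bulk and 15.0 CPM in vehicle bulk (5.58, 4.53–6.92), from 12.2% and 5.19% of cells. Csf1 had a ratio of 1.16 (1.09–1.23), Hgf 1.48 (1.20–1.83) and Igf1 0.890 (0.854–0.927). Il33, an alarm signal that acts on regulatory T cells and innate lymphoid cells, stood at 391 CPM in LNP-CRISPR bulk and 488 CPM in vehicle bulk (0.802, 0.758–0.848), but at a ratio of 1.18 among cells with fewer than 5 UMIs of Tnc and Adam12. Inhba, an activin subunit, stood at 347 CPM and 699 CPM (0.497, 0.470–0.525), with 1 cell of vehicle bulk holding 1119 of 5401 UMIs. Among the same cells as for Il33 its ratio turned to 2.41.

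Acute phase genes were divided, with 4 of 7 over 1 and a median log2 ratio of 0.20. Saa3, a serum amyloid made by stromal cells and macrophages, stood at 194 CPM in LNP-CRISPR bulk and 13.5 CPM in vehicle bulk (14.4, 11.8–17.8), but it was found in 11.5% and 2.597% of cells and 1 cell held 511 of its 928 UMIs. Without the richest cell of each library its ratio was 11.5. Ptx3, a soluble pattern receptor, was broader, at 2922 CPM in LNP-CRISPR bulk and 1090 CPM in vehicle bulk (2.68, 2.61–2.75) and with a UMI in 90.8% and 74.5% of cells. Lcn2 had 46 and 42 UMIs. Serpina3n, a protease inhibitor, had a ratio of 0.833 (0.778–0.891). Serpinb2 had a ratio of 0.431 (0.395–0.469) that was 1.03 without FAPs of over 60000 UMIs or with myeloid UMIs.

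Complement genes were mostly lower in LNP-CRISPR bulk, with 9 of 10 under 1 (against 56.3% of all genes), 3 at or under 0.5 and a median log2 ratio of -0.53. C3, the central component, stood at 206 CPM in LNP-CRISPR bulk and 388 CPM in vehicle bulk (0.530, 0.493–0.570). C4b was at a ratio of 0.380 (0.306–0.468), C2 at 0.357 (0.241–0.514) and C7, of the membrane attack complex, at 0.322 (0.235–0.433). The inhibitor Serping1 stood at a ratio of 0.718 (0.692–0.743). Cfb, of the alternative pathway, was the exception at 1.15 (1.05–1.246).

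Progenitor genes were lower in 19 of 23 cases, with a median log2 ratio of -0.26 and none past the fold. Pi16 stood at 647 CPM in LNP-CRISPR bulk and 862 CPM in vehicle bulk (0.751, 0.719–0.783) and Dpp4 at 55.4 CPM and 74.1 CPM (0.747, 0.643–0.865), but the selection set a floor under both. Ly6a, the stem cell antigen Sca-1, stood at 949 CPM in LNP-CRISPR bulk and 1280.1 CPM in vehicle bulk (0.741, 0.715–0.768). Ly6c1 had a ratio of 0.6997, the surface protein Cd248 0.677, the ligand Wnt2 0.667, Cd34 0.832 and Cd55 0.823. Gfpt2, an enzyme of hexosamine synthesis, was at 1.24 (1.18–1.31). Parenchymal FAP genes had 17 of 20 under 1 and a median log2 ratio of -0.30, with Apod at 0.632, the growth factor Gdf10 at 0.419 and Cygb at 0.654.

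Matrix genes were lower in 21 of 24 cases by small amounts, with a median log2 ratio of -0.16, and the list holds the 4 genes on which FAPs were selected. Col1a1 was at a ratio of 0.832 (0.822–0.841), Col3a1 at 0.808 (0.801–0.815), Dcn at 0.815 (0.804–0.826) and Sparc at 0.816 (0.806–0.826). The elastic fibre genes Eln, at 0.693 (0.660–0.727), and Fbln1, at 0.583 (0.510–0.665), were lower still. Fn1 stood at 1.01 (0.982–1.03). Comp, a matrix protein of tendon and cartilage, stood at 25.5 CPM in LNP-CRISPR bulk and 55.8 CPM in vehicle bulk (0.457, 0.371–0.560), from 17.6% and 14.3% of cells. The hyaluronan synthase Has1 and the hyaluronan-binding Tnfaip6 went the other way, at 1.76 (1.69–1.84) and 1.82 (1.76–1.88). Of the proteases, Mmp3 stood at 68.9 CPM in LNP-CRISPR bulk and 161 CPM in vehicle bulk (0.428, 0.378–0.484), Plau had a ratio of 1.68 and Adamts1 1.39. The metal-binding proteins Mt1 and Mt2 stood at 1.55 (1.53–1.58) and 1.64 (1.62–1.67). The lowest of the other named genes were Cgref1 at 0.205, the limb patterning gene Hoxa11 at 0.199 (9 and 73 UMIs), Sema3d at 0.285 and Fmo2 at 0.350.

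The lists that bear on delivered RNA, DNA cutting and growth had few genes past the fold. These were 2 of 27 interferon response genes and 1 of 14 cell cycle genes, all higher, against 1.12% of all genes higher. Interferon response genes had 16 of 27 over 1 and a median log2 ratio of 0.17, with Isg15 at 2.07 (1.87–2.30) and Ifit1 at 2.43 (2.08–2.84) as the highest, but the median was -0.19 in cells with both Pi16 and Dpp4 detected. RNA sensors had 5 of 9 over 1, a median of 0.02 and the double-stranded RNA sensor Ifih1 at 1.93 (1.68–2.23). The p53 targets had 6 of 17 over 1 and a median of -0.15, with Cdkn1a at 0.901 (0.808–1.003) and Mdm2 at 1.14 (0.968–1.35). Particle uptake genes had 3 of 11 over 1 and a median of -0.13, with Lrp1 at 561 CPM in LNP-CRISPR bulk and 614 CPM in vehicle bulk (0.913, 0.871–0.958). Cholesterol synthesis genes had 11 of 16 over 1 and a median of 0.25, which was -0.15 without FAPs of over 60000 UMIs or with myeloid UMIs. Cell cycle genes had 13 of 14 over 1 and a median of 0.58, with Mki67 at 1.74 (1.54–1.96), Pcna at 1.48 (1.34–1.63) and Ccnb1 at 2.23 (1.43–3.50). Without FAPs of over 60000 UMIs or with myeloid UMIs that median was -0.96, so the direction rests on those cells. The counts came from few cells, Cdk1 for instance from 13.7% in LNP-CRISPR bulk and 10.8% in vehicle bulk.

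The remaining lists were divided or small. The activation list had 10 of 18 over 1 (median log2 ratio 0.05), with Acta2, the contractile actin, at 46.6 CPM in LNP-CRISPR bulk and 16.9 CPM in vehicle bulk (2.75, 2.21–3.44). Immediate early genes had 9 of 18 over 1 (0.04), heat shock genes 7 of 11 (0.06), iron and oxidative stress genes 9 of 13 (0.05), and proteases and inhibitors 6 of 13. Hyaluronan genes had 5 of 6 over 1 (0.22), Wnt and BMP genes 6 of 15 (-0.17) and adipogenic genes 3 of 8 (-0.25), among them Klf4 at 0.679 (0.648–0.712).

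**Figure D4:**
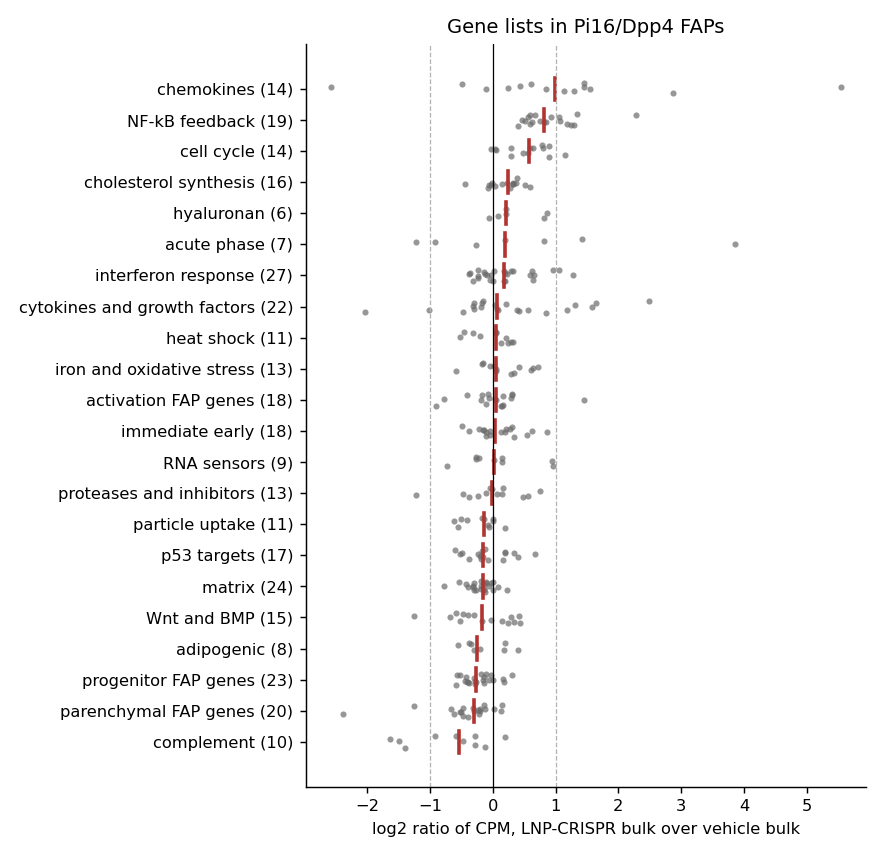
Log2 ratio of CPM, LNP-CRISPR bulk over vehicle bulk, in Pi16/Dpp4 FAPs for every measured gene of 22 lists (grey points, spread vertically at random; gene numbers in brackets), with red bars at list medians and dashed lines at a log2 ratio of -1 and 1. Chemokine and NF-kB medians lie at 0.99 and 0.82 and the complement median at -0.53.

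The NF-kB and chemokine difference was shared by the other FAPs and differed in size. In activated FAPs, where 0.67% of 10303 genes were higher and 0.689% lower by the fold and 47.6% lay over and 52.4% under 1, NF-kB feedback genes had 18 of 19 over 1 with a median log2 ratio of 0.40 and chemokines 10 of 13 with 0.36. In parenchymal FAPs, where 0.829% of 8928 genes were higher and 1.37% lower by the fold and 41.4% lay over and 58.6% under 1, the same lists had 19 of 19 (0.61) and 11 of 14 (0.91). The LNP-CRISPR over vehicle ratio of Ccl2 in Pi16/Dpp4 FAPs was 2.13 times that in activated FAPs (2.07–2.19) and 1.45 times that in parenchymal FAPs (1.39–1.52). For Cxcl10 these figures were 2.41 (2.16–2.68) and 0.934 (0.835–1.04), for Cxcl5 2.15 (2.05–2.25) and 1.56 (1.45–1.69), and for Tnip1 2.57 (2.04–3.25) and 1.34 (1.02–1.77). Other genes had a larger ratio in parenchymal FAPs than in Pi16/Dpp4 FAPs. For Cxcl2 the figures were 1.39 (1.34–1.45) and 0.698 (0.652–0.746), in the same order. For Rnd1 they were 1.76 (1.46–2.13) and 0.706 (0.556–0.895), and for Ifih1 1.85 (1.48–2.32) and 0.643 (0.520–0.796). The ratio of C3 in Pi16/Dpp4 FAPs was 0.648 times that in activated FAPs (0.575–0.731) and 0.615 times that in parenchymal FAPs (0.550–0.688). For C7 the figure against parenchymal FAPs was 1.06 (0.601–1.88). Complement genes had 8 of 9 under 1 in activated FAPs (median log2 ratio -0.06) and 8 of 11 in parenchymal FAPs (-0.22).

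Col1a1 is, with Col1a2, Col3a1 and Dcn, a gene on which every FAP was selected, so its values are a description. It had LNP-CRISPR over vehicle ratios of 0.832 in Pi16/Dpp4 FAPs, 1.08 in activated FAPs and 1.01 in parenchymal FAPs. The first was 0.771 times the second (0.760–0.782) and 0.823 times the value in parenchymal FAPs (0.808–0.837). The matrix list had 11 of 24 over 1 in activated FAPs and 14 of 24 in parenchymal FAPs. Cell cycle genes had 6 of 14 over 1 in activated FAPs (median log2 ratio -0.03) and 6 of 9 in parenchymal FAPs (0.15). Saa3 was also higher in the other FAPs of LNP-CRISPR bulk, with 1268 UMIs against 1 UMI in activated FAPs (909 of them in 1 cell, ratio 1735, 311–68584) and 1107 UMIs against 231 UMIs in parenchymal FAPs. Within LNP-CRISPR bulk, 13 of 19 NF-kB genes were higher in Pi16/Dpp4 FAPs than in other FAPs (median log2 ratio 0.10), and within vehicle bulk 3 of 19 (-0.30). Chemokines gave 8 of 14 (0.16) in LNP-CRISPR bulk and 3 of 13 (-0.39) in vehicle bulk.

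Inside LNP-CRISPR bulk, the Pi16/Dpp4 FAPs with most Cas9 had more RNA of the inflammatory lists than those with least. The 43 cells highest in Cas9 CPM (46 to 904 Cas9 UMIs) were set against the 43 lowest (0 to 12 UMIs), with median depths of 27950 and 36532 UMIs. Of 6656 genes measured 167 were higher (2.51%) and 428 lower (6.43%), a ratio over 1 was found for 38.7%, and the all-gene median log2 ratio was -0.15. NF-kB feedback genes had 18 of 19 over 1 (median log2 ratio 0.81), acute phase genes 6 of 6 (1.40), complement genes 7 of 8 (0.90), chemokines 10 of 12 (0.73) and interferon response genes 19 of 25 (0.44). Cell cycle genes had 1 of 13 over 1 (-0.96), activation genes 4 of 17 (-0.53) and cholesterol synthesis genes 4 of 11 (-0.49).

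By gene, Cxcl10 stood at 1538 CPM in Cas9-high and 288 CPM in Cas9-low cells (5.33, 4.855–5.87), with a UMI in 79.1% and 67.4% of cells. Tnip1 stood at 163 CPM and 43.1 CPM (3.79, 2.93–4.94) and Gbp5 at 97.8 CPM and 23.4 CPM (4.18, 2.96–5.999), in the same order. Ccl2 stood at 6430 CPM in Cas9-high and 3784 CPM in Cas9-low cells (1.70, 1.65–1.75). Over all 131 cells the Spearman correlation with Cas9 CPM was 0.29 for Ccl2 CPM and 0.27 for Cxcl10 CPM. C3, lower in LNP-CRISPR bulk than in vehicle bulk, stood at 272 CPM in Cas9-high and 115 CPM in Cas9-low cells (2.36, 1.99–2.80). Pi16 had a ratio of 1.79 (1.64–1.96) and Col1a1 a ratio of 1.005 (0.982–1.03). Hba-a2 was found in 97.7% of Cas9-high and 23.3% of Cas9-low cells (39.2, 22.1–76.6). Saa3 had 299 and 4 UMIs, and Clu 147 UMIs and 1 UMI (ratio 206, 36.5–8208), found in 14.0% and 18.6% of Cas9-high cells. Most of the 928 Saa3 UMIs of the 131 cells lay in neither group, and 1 cell held 511 of the 928. The Spearman correlation of Saa3 with Cas9 CPM over the 131 cells was 0.09. Csf2 had a ratio of 9.64 with 118 of 206 UMIs in 1 cell, and Gm13889 a ratio of 13.7 with 80 of 146 UMIs in 1 cell. The proliferation genes Pclaf (0.293), Stmn1 (0.257), Hmmr (0.237), Cenpe (0.182) and Cdk1 (0.509) were lower, the last not past the fold, and 1 Cas9-high cell held all 33 Cdk1 UMIs of its group.

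Depth moved with part of this contrast, as did the Tnc and Adam12 classes above. Among Pi16/Dpp4 FAPs of 10000 to 60000 UMIs (37 cells on each side, median depths 27950 and 24804 UMIs) chemokines stood at 10 of 12 over 1 (1.18), NF-kB genes at 18 of 19 (0.69), acute phase genes at 6 of 6 (0.93) and complement genes at 7 of 7 (0.42). The interferon list came to 15 of 24 (0.12), activation genes to 7 of 15 (-0.05) and parenchymal genes to 10 of 19 (0.05, against 0.57 in all cells). Cell cycle genes had 3 measured, 2 of them over 1. The all-gene median log2 ratio among these cells was -0.115, so most genes lay under 1. The 43 cells on each side come from 1 library and share its preparation.

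**Figure D5:**
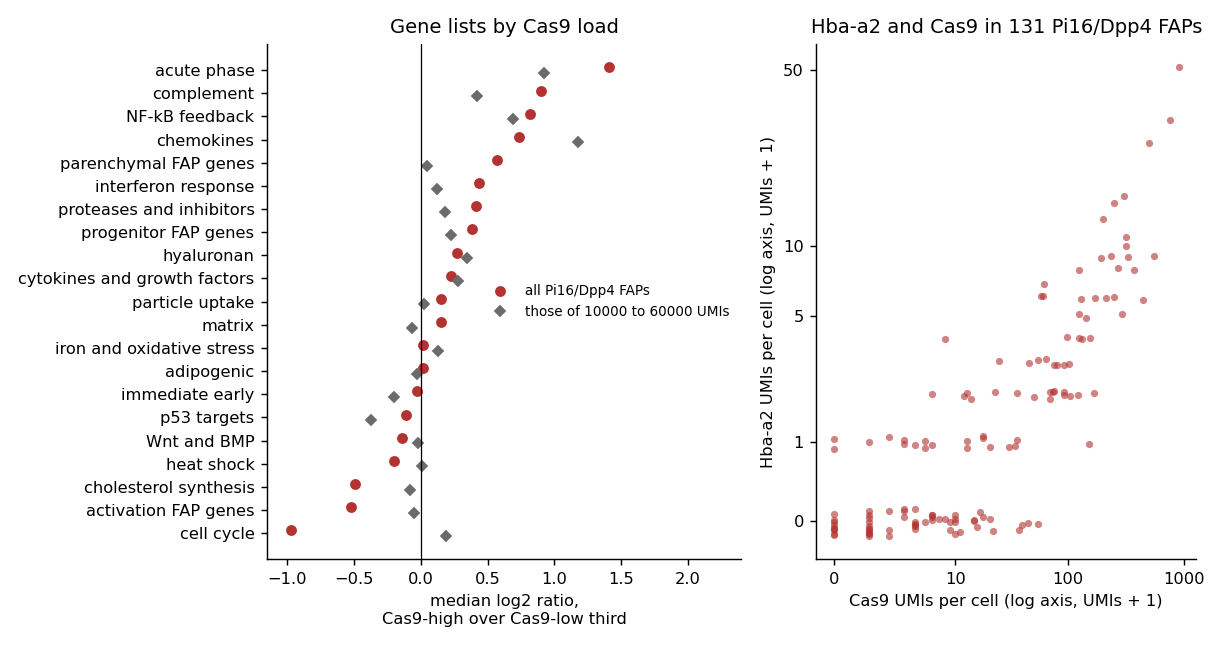
Left, median log2 ratio of gene lists in Cas9-high over Cas9-low Pi16/Dpp4 FAPs of LNP-CRISPR bulk. Lists with at least 5 genes measured in all cells are shown, which leaves out the RNA sensors. Red circles are all cells (43 on each side), and grey diamonds are cells of 10000 to 60000 UMIs (37 on each side, where the cell cycle list has 3 genes). Right, Hba-a2 against Cas9 UMIs in each of the 131 cells (log axes, 1 UMI added, points spread vertically at random), where Hba-a2 is found in 92.9% of cells with 30 or more Cas9 UMIs.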

How the data were processed

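The authors deposited 1 matrix of raw UMI counts per library made with 10x 3' single-cell chemistry, as whole numbers with no normalization. The matrices hold 32286 features, of which 32285 are mouse genes and 1 is the added Cas9. Cell Ranger 7.0.1 and mm10 stand in the submitters' processing notes, while cellranger 5.0.1 is named per the file headers. Identifiers were matched to GENCODE M21 for GRCm38 positions (32235 found, 99.8%). Filtering removed barcodes under 200 detected genes or over 20% mitochondrial UMIs and left 1152 of LNP-CRISPR bulk, 1204 of vehicle bulk, 1907 of LNP-CRISPR kit and 1411 of vehicle kit. No doublet caller was run, and 1 alternative leaves out FAPs over 60000 UMIs or with myeloid UMIs.

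CPM carry exact Poisson intervals, shares exact Clopper-Pearson intervals and ratios exact conditional binomial intervals. Where a ratio is set over another ratio, the interval is not exact but symmetric on the log scale. All intervals are at 95% and for counting error only. A count of 0 was set against 3 counts. Cells, selection rule, 22 gene lists and 12 marker classes were chosen with earlier results of these data known, so they are not independent evidence of any direction. Named genes were the 8 highest and 8 lowest LNP-CRISPR over vehicle ratios by the interval bound nearest 1 without the richest cell (detected in at least 10% of cells), the 3 most abundant genes of each list, 16 genes of prior interest, the 12 highest and 8 lowest against other FAPs, and the 5 highest and 5 lowest by Cas9 load. Other list genes were named after their values were seen. The ratio step was tested on simulated data. Python 3.11.15, numpy 2.4.6, scipy 1.17.1, pandas 2.3.3 and matplotlib 3.10.9 were used. Alternatives changed the selection threshold, cell filters, depth, cell weights, scaling and the count minimum. Genes withheld from the text are not reported here, and most other list genes enter only through counts and medians.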

Additional observations from a re-analysis of the deposited data

Results flagged for a closer look

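Il11, a cytokine of fibroblast activation, had an LNP-CRISPR over vehicle ratio of 0.245 in Pi16/Dpp4 FAPs (25 UMIs in LNP-CRISPR bulk, 165 UMIs in vehicle bulk, 1 cell of which held 41) and of 2.22 in activated FAPs. The opposite directions in these cell states drew attention, and the difference was not tested, since each group is 1 library. The counting interval of the first ratio over the second, 0.110 (0.0669–0.181), leaves out all spread between animals.

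The LNP-CRISPR kit library, which none of the comparisons uses, held 4 FAPs with 30 Cas9 UMIs, of which 29 lay in 1 cell, against 0 Cas9 UMIs in the vehicle kit library. These cells had 0 Pi16 UMIs and 1 Dpp4 UMI.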

How the results depend on the processing

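No paired analysis was possible because each group is 1 library and no replicate number is shared. The selection threshold set the size of the group. With 3 or more UMIs of Pi16 and Dpp4 the share of FAPs was 47.8% in LNP-CRISPR bulk and 49.3% in vehicle bulk, with 10 or more 21.7% and 24.8%, with both genes detected 15.9% and 18.5%, and after thinning FAPs to 10000 UMIs 28.97% and 30.1%, so it was lower in LNP-CRISPR bulk under each of these. Cas9 in the Pi16/Dpp4 FAPs came to 1888, 2694, 2721 and 2555 CPM under the same settings, in that order, and its ratio to other FAPs to 1.34, 1.99, 1.94 and 1.94. Leaving out FAPs over 60000 UMIs or with myeloid UMIs gave 2961 CPM and a ratio of 1.75, equal weight per cell 2891 CPM, leaving out the richest cell 2024 CPM, and FAPs of 10000 to 60000 UMIs a ratio of 1.801. Among genes with at least 200 UMIs, 47 were higher (0.72%) and 23 lower (0.35%) by the fold. Among all with a UMI in each library 873 were higher (5.72%) and 832 lower (5.45%). Without the richest cell of each library 162 genes were lower (1.61%). Between Cas9-high and Cas9-low cells of 10000 to 60000 UMIs 201 genes were lower, against 428 in all cells. These counts come from 37 and 43 cells on each side. Since a gene needed 50 UMIs in both, they do not rest on the same set of measured genes. Ratios turned direction for Inhba (1.01 with both Pi16 and Dpp4 detected, 2.41 with Tnc and Adam12 under 5 UMIs) and Serpinb2 (1.03 without FAPs over 60000 UMIs or with myeloid UMIs), and the cause was not tested. For 88 named genes, 1062 of 1141 alternative ratios lay on the same side of 1 and 79, from 29 genes, on the other. For the 22 lists 254 of 286 medians lay on the same side and 32 on the other. Those 32 came from the RNA sensor, Wnt and BMP, activation, acute phase, adipogenic, cell cycle, cholesterol synthesis, immediate early, interferon response, iron and protease lists, and the other 11 lists, chemokines, NF-kB and complement among them, had none. The median log2 ratio of 6560 genes with at least 200 UMIs was -0.03, and setting it to 0 gave 119 genes higher and 98 lower. Depth, with 362 selected cells, limits genes under 50 UMIs, and settings with cells of 10000 to 60000 UMIs, without marker-rich cells and with Tnc and Adam12 under 5 were chosen after seeing the data.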
